A study of Mus musculus with 15 samples.

Results

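The nuclear genes for the respiratory chain and ATP synthase of mitochondria were followed in mouse brown fat after 2 ways of stimulating the receptor pair FGFR1/KLB. They were taken as the genes with a single-symbol probe set whose symbol begins with Nduf, Uqcr, Atp5 or Cox4 to Cox8, together with Cyc1 and Cycs, and symbols ending in -ps were left out. This gave 88 of the 18194 genes on the array, each read from its brightest probe set, and 86 of them lay above the filter on low signals that left 13174 genes to test. The 86 were 33 subunits of complex I, 8 complex I assembly factors (Ndufaf1 to Ndufaf8), 9 subunits of complex III, cytochrome c itself (Cycs), 18 genes of complex IV and 17 of ATP synthase. The complex IV group includes Ndufa4, its paralogue Ndufa4l2 and the supercomplex factor Cox7a2l. The 2 genes below the filter were Cox7b2, with a mean of 3.78, and Ndufb4, with a mean of 4.88 on the log2 scale.

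The samples were interscapular brown fat from 15 adult male wild-type C57BL/6N mice on a high-fat diet, each on its own array, with the tissue taken at day 5. Of these, 5 were controls (replicates 31 to 35), whose injected substance, if any, is not labelled. A further 5 (36 to 40) had received human FGF21 at 1 mg/kg per injection, or 2 mg/kg per day, for 5 days. The last 5 (41 to 45) had received 1 intraperitoneal dose of 10 mg/kg of the agonist antibody bFKB1, labelled aFGFR1/KLB. FGF21 is a hormone that acts through FGF receptor 1 and its co-receptor beta-klotho (KLB), and the antibody binds and activates the same pair. The comparisons ask whether either agonist changed the transcripts of the respiratory chain, and whether the agonists differed from each other. Values are log2 of the authors' normalised intensity. A probe set's level is not compared with that of another, since probes differ in how strongly they bind.

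Complex I takes electrons from NADH, complex III passes them from ubiquinol to cytochrome c, and complex IV hands them to oxygen. All 3 complexes pump protons across the inner membrane, and ATP synthase uses the gradient to make ATP. In brown fat the uncoupling protein Ucp1 lets the protons return without making ATP, so that the chain runs fast and its energy leaves as heat. Several of these subunits come as tissue isoforms, among them Cox7a1 and Cox8b, which are typical of brown fat and muscle. The tissue markers were present: the mean log2 intensity over the 15 samples was 14.69 for Ucp1, 14.45 for the brown fat protein Cidea and 14.16 for the adipocyte hormone Adipoq.

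Promoters of respiratory chain genes are known for sites of nuclear respiratory factor 1 (NRF1), of ETS proteins such as GABP, and of the estrogen-related receptors. The 250 bases before the RefSeq start (GRCm38.p6) could be matched for 72 of the 88 genes and were searched on both strands for 5 motifs. The NRF1 motif was found in 10 of the 72 (13.9%), against 4.23% of 27025 genes with such a window. The ETS motif CCGGAAG stood in 13 (18.1%), against 7.83%. The estrogen-related receptor motif AAGGTCA was in 5 (6.9%, against 4.7% of all), the cAMP response element TGACGTCA in 4 (5.6%, against 1.77%) and the YY1 motif AAGATGGCG in 1 (1.4%, against 0.71%). Counting any of the 5, 26 of 72 promoters (36.1%) held a match, against 17.4% of all. A match is a run of letters, not a measured binding site.

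The promoters of 5 genes that the results turn on are printed, in lower case with motif matches in capitals, 5′ to 3′ along the gene's strand. Ndufaf4, the assembly factor with the smallest p in the antibody comparison, lies at chr4:24897833-24898082 on the plus strand and has an NRF1 match that begins 113 bases before the start. Ndufs5, a complex I subunit with the smallest p between the treatments, lies at chr4:123718187-123718436 on the minus strand, with an estrogen-related receptor motif at 228 and an NRF1 match at 98. Cox6a1, the brightest probe set of the 88, lies at chr5:115348959-115349208 on the minus strand, with NRF1 matches at 162 and 117 and an ETS match at 16. Cycs, at chr6:50566570-50566819 on the minus strand, has a cAMP response element at 169. Atp5g1, one of the genes that varied most between animals, lies at chr11:96075632-96075881 on the minus strand and holds none of the 5 motifs in this window.
Ndufaf4: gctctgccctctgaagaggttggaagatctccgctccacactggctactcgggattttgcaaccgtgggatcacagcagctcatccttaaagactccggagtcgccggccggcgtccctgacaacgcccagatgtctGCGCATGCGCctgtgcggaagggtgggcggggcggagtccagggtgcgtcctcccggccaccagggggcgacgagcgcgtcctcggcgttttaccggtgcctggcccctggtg
Ndufs5: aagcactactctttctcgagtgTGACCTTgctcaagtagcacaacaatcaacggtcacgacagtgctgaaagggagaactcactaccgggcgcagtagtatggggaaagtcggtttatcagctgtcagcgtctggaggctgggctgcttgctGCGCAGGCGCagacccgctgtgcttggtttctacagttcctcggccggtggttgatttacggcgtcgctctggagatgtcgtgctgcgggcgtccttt
Cox6a1: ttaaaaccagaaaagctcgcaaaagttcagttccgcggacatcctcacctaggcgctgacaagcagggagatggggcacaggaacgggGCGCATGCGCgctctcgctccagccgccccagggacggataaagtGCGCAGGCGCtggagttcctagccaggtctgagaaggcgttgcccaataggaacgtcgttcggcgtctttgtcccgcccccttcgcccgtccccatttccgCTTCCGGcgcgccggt
Cycs: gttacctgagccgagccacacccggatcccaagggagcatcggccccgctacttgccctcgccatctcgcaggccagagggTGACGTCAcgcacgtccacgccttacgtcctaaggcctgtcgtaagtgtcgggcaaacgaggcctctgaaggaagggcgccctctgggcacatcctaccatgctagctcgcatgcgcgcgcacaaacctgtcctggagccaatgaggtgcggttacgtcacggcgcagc
Atp5g1: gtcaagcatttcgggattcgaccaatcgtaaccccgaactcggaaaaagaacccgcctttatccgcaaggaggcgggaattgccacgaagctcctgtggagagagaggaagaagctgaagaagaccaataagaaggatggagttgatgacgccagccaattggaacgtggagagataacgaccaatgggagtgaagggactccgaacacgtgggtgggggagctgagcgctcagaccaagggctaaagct

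Across the array data, medians of the 15 arrays lay between 50.6 and 52.1 intensity units, and no 2 arrays held identical values. Upper quartiles ran from 189 to 216 and were highest in FGF21 36 (216) and control 34 (209). Arrays give no read depth, so that their number limits the precision. Control 34 and FGF21 36 stood apart from the other samples of their groups, with lower levels of most respiratory chain genes than the others and the highest means of the macrophage and the fibroblast and matrix marker lists. Counts and medians over the genes of each comparison are given with and without them. Since they stand out in the values of these same genes, p-values and calls from fits without them are description only.

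With the antibody, no respiratory chain gene passed the test. In the limma fit over all 13174 genes, 0 of 86 were called, that is, had an adjusted p under 0.05, where 5.18% of all genes tested did (682 genes). At an unadjusted p under 0.05 there were 5 of 86, or 5.81% against 19.4% of all genes. Of these 2 were higher and 3 lower, where 9.31% and 10.1% of all genes were. The median log2 fold change of the 86 was −0.00, beside −0.02 for all genes, with 41 above and 45 below 0 (45.1% and 54.9% of all genes), and single genes ranged from −0.19 (Ndufa4l2) to 0.32 (Ndufaf4). The 95% confidence interval lay within a 1.2-fold change in either direction for 66 of the 86, and within 1.5-fold for 84 (97.7%, against 82.9% of all genes tested). These intervals do not allow for signals that rise too little near the top of the arrays' range, which was not tested. In bulk tissue, fewer cells of a type and less RNA per cell cannot be told apart.

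By complex, the antibody medians were 0.01 for complex I, −0.01 for the complex I assembly factors, 0.01 for complex III, 0.05 for Cycs, −0.02 for complex IV and −0.01 for ATP synthase. These signs turned on control 34 and on the scaling. Without control 34 and FGF21 36, the medians were −0.03 for complex I (9 of 33 above 0), −0.07 for the assembly factors, −0.04 for complex III, 0.04 for Cycs and −0.03 for complex IV and ATP synthase. The median of the 86 was −0.03 in that fit and without control 34 alone, with 62 of 86 below 0 in both, against 54.8% of all genes. When each array was centred on its 45 ribosomal protein genes, every log2 fold change of the antibody against control shifted by 0.11. The median of the 86 became 0.10 beside 0.09 for all genes, and 81 of 86 lay above 0, where 71.4% of all genes did. Relative to all genes the 86 stood where they had before, and 0 of 86 were called, where 1.28% of all genes were. The corresponding shifts were 0.02 for FGF21 against control and 0.09 between the treatments.

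**Figure D1:**
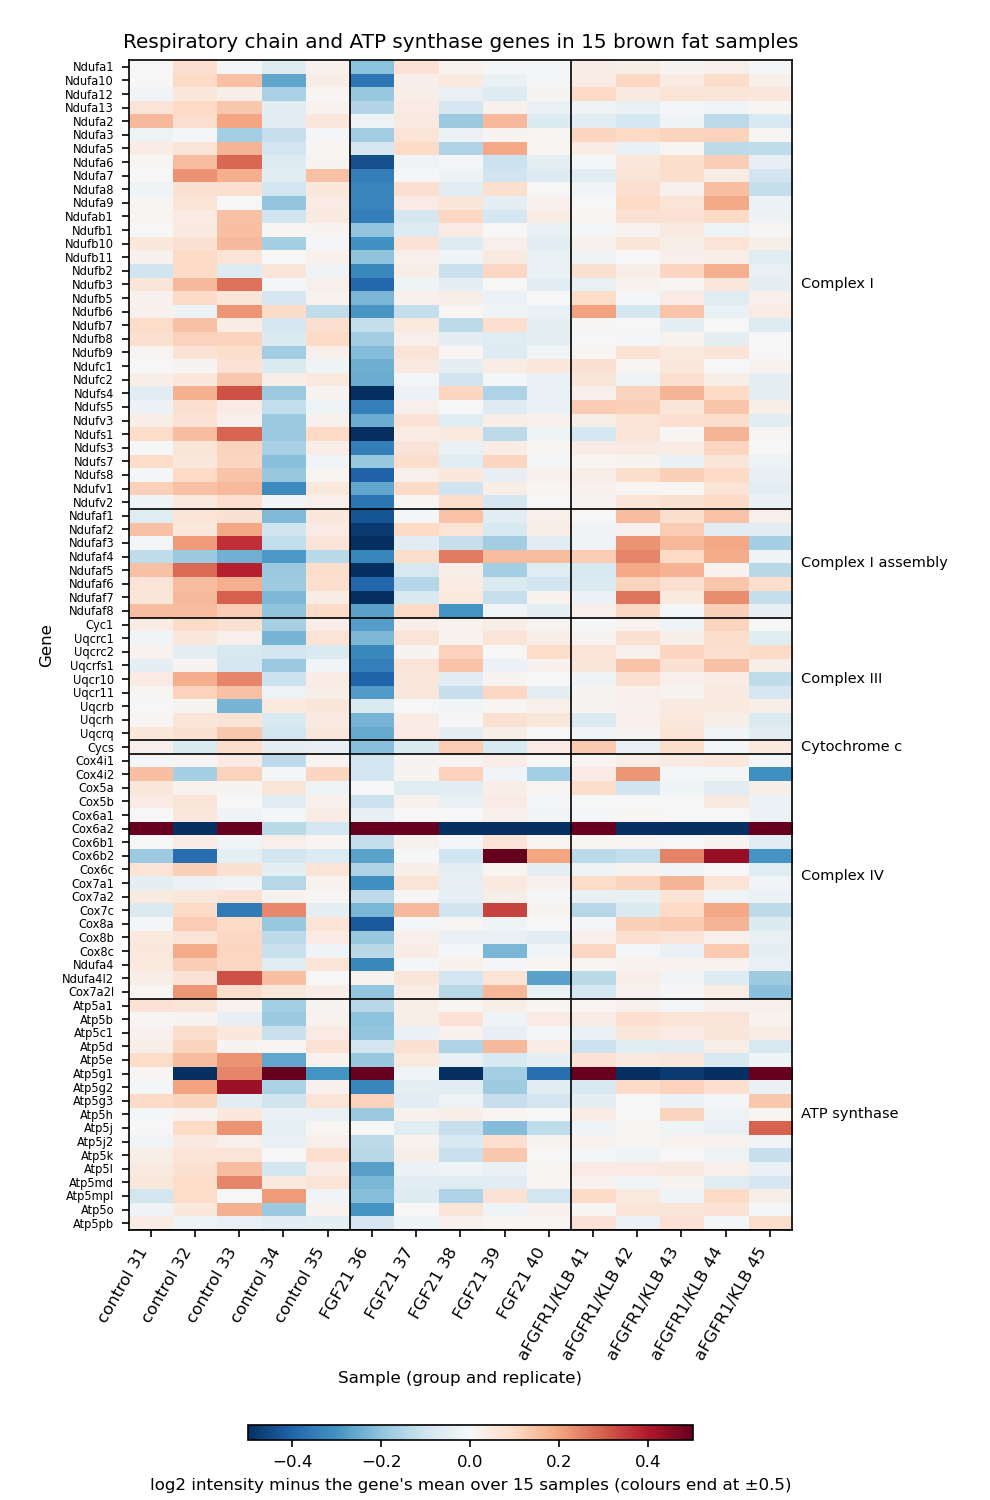
Each row is 1 of the 86 tested genes and each column 1 of the 15 samples, and colour gives the log2 intensity minus the gene's mean over the 15 samples, with colours ending at 0.5 either way. FGF21 36 is blue over most genes, control 34 is paler blue, and the rows of Cox6a2 and Atp5g1 vary far more between samples than the others.

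Ndufaf4 had the largest value of the antibody comparison. Its log2 intensities were 10.46, 10.40, 10.35, 10.30 and 10.45 in the controls, 10.72, 10.83, 10.69, 10.78 and 10.57 with the antibody, and 10.26, 10.68, 10.85, 10.75 and 10.75 with FGF21. All antibody samples lay above all controls, and so did all FGF21 samples except FGF21 36, the lowest of the 15. The log2 fold change was 0.32 ± 0.09 (SE, n = 5 per group, 95% interval 0.12 to 0.52) with an unadjusted p of 0.00374 and an adjusted p of 0.061, which missed the threshold. For FGF21 it was 0.26 ± 0.09 with an adjusted p of 0.119. A second, dimmer probe set of Ndufaf4 gave 0.47 ± 0.12 with the antibody, with an adjusted p of 0.042 over all probe sets tested, and 0.11 ± 0.12 with FGF21 (adjusted p = 0.692).

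The call on Ndufaf4 turned on the samples and the settings. Without FGF21 36, which enters the antibody comparison only through the shared estimate of the spread, the antibody value was 0.32 with an adjusted p of 0.0060, and the FGF21 value was 0.36 with an adjusted p of 0.0040. Without both FGF21 36 and control 34, the values were 0.30 (adjusted p = 0.00624) and 0.34 (adjusted p = 0.00311). Both samples stand out in the values of these same genes. Leaving them out lowers the median SD within groups of the 86 from 0.103 to 0.0596, so that the p-values without them are too small. The antibody value also passed with a stricter filter, with the mean of a gene's probe sets, with array weights and with only the 2 groups compared in the fit.

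Among the 86, 5 genes had antibody and control samples that did not overlap (5.81%, where 8.61% of all genes did not). With the antibody 4 were higher and 1 lower, where 4.44% and 4.17% of all genes were. Ndufa3, an accessory subunit of complex I, read 14.04, 14.06, 13.89, 13.94 and 14.05 in the controls and 14.17, 14.16, 14.17, 14.17 and 14.07 with the antibody. These groups were separate but close, with a log2 fold change of 0.15 ± 0.06 and an adjusted p of 0.138.

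Uqcrc2, a core protein of complex III, read 14.31, 14.24, 14.21, 14.20 and 14.22 in the controls and 14.36, 14.32, 14.40, 14.37 and 14.39 with the antibody. The antibody samples lay just above the highest control, and the log2 fold change of 0.13 ± 0.07 had an adjusted p of 0.346. Uqcrfs1, the Rieske iron-sulfur protein that takes electrons from ubiquinol, read 13.82, 13.88, 13.79, 13.69 and 13.86 against 13.93, 14.02, 13.95, 14.02 and 13.90. Here too the gap between the groups was narrow, and the value of 0.16 ± 0.08 had an adjusted p of 0.304. For Atp5md, a small membrane subunit of ATP synthase also known as DAPIT, the direction was the opposite, with 12.61, 12.65, 12.80, 12.60 and 12.62 in the controls and 12.57, 12.54, 12.57, 12.50 and 12.47 with the antibody. Its log2 fold change was −0.13 ± 0.06 (adjusted p = 0.240).

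The 2 remaining genes with an unadjusted p under 0.05 overlapped between the groups. Ndufa2, an accessory subunit of complex I, had a log2 fold change of −0.16 ± 0.07 (adjusted p = 0.196). Ndufa4l2, the paralogue of Ndufa4, had −0.19 ± 0.08 (adjusted p = 0.198).

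With FGF21, no respiratory chain gene passed the test either, but most had values below 0. In the limma fit 0 of 86 had an adjusted p under 0.05, where 6.32% of all genes did (833 genes), and 11 of 86 had an unadjusted p under 0.05, which is 12.8% against 20.4% of all genes. Of these 1 was higher and 10 lower, where 8.12% and 12.3% of all genes were. The median log2 fold change was −0.07, beside −0.02 for all genes tested. Of the 86, 73 lay below 0 (84.9%, against 54.5% of all genes). With arrays centred on their median and on ribosomal protein genes, 78 and 72 did so, where 58.6% and 50.4% of all genes did. Without FGF21 36 the median was −0.03 and 54 of 86 lay below 0, against 54.1% of all genes, and without control 34 the median was −0.10 and 77 lay below 0, against 55.3%. The 95% interval lay within a 1.2-fold change for 55 and within 1.5-fold for 82 of the 86 (95.3%, against 82.3% of all genes). This comparison and that of the antibody share the 5 control samples.

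The share of values below 0 differed between the complexes, beside 54.5% of all genes. In complex I, 32 of 33 subunits lay below 0, with a median of −0.08 and single values from −0.21 (Ndufs1) to 0.04 (Ndufa3). Among the complex I assembly factors 7 of 8 lay below 0, with a median of −0.18, and Ndufaf4 was the 1 above. The medians were −0.03 for complex III (5 of 9 below), −0.03 for Cycs, −0.07 for complex IV (14 of 18 below) and −0.06 for ATP synthase (14 of 17 below). Without control 34 and FGF21 36 they were −0.05 for complex I (30 of 33 below), −0.18 for its assembly factors (7 of 8), −0.003 for complex III (5 of 9), 0.01 for Cycs, −0.06 for complex IV (13 of 18) and −0.05 for ATP synthase (14 of 17).

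**Figure D2:**
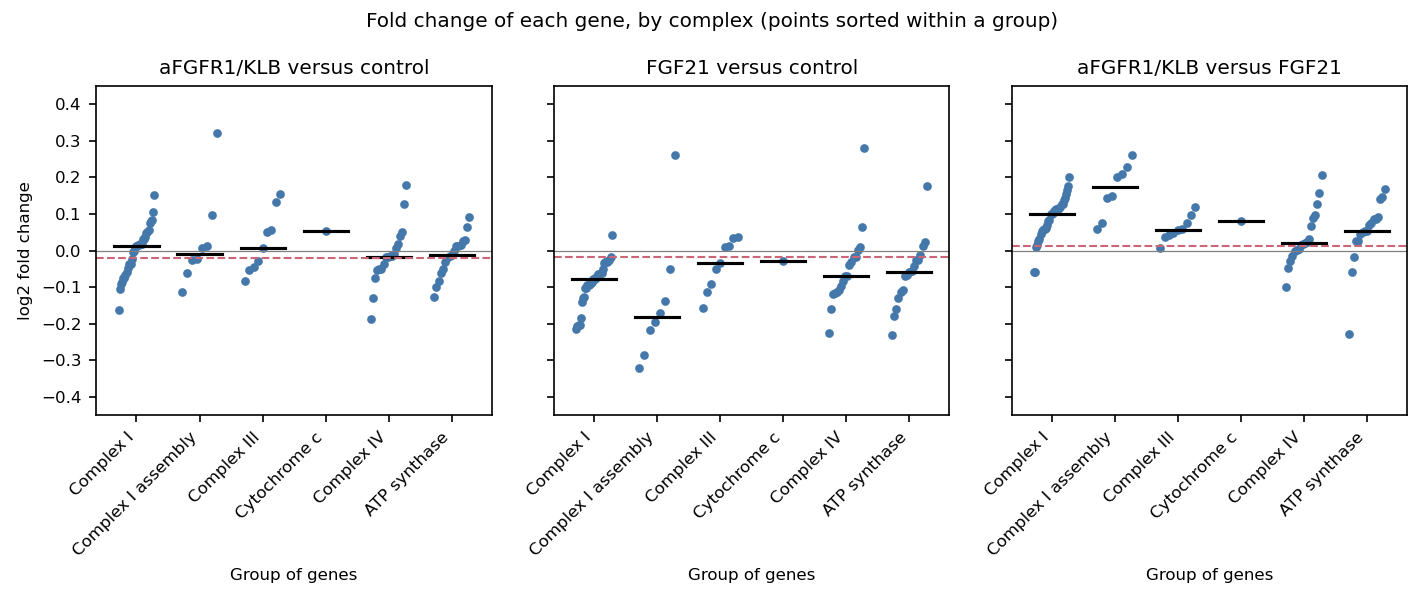
Points are single genes, with the log2 fold change of each comparison on the y axis and the groups of genes on the x axis, black bars are group medians and the red dashed line is the median of all 13174 genes tested. With FGF21 against control the medians run from −0.18 to −0.03, and with the antibody against control from −0.02 to 0.05.

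The smallest p with FGF21 was that of Atp5md. It read 12.33, 12.50, 12.49, 12.50 and 12.57 with FGF21, and every one of these lay below the lowest control of 12.60. The log2 fold change was −0.18 ± 0.06 with an unadjusted p of 0.00708 and an adjusted p of 0.0794. Ndufc2, an accessory subunit of the membrane arm of complex I, was the other gene without overlap (2 of 86, or 2.33%, where 5.25% of all genes did not overlap). Both were lower with FGF21, as were 2.88% of all genes. Its log2 intensities were 13.70, 13.72, 13.80, 13.70 and 13.72 in the controls and 13.42, 13.66, 13.57, 13.66 and 13.63 with FGF21. The difference was −0.14 ± 0.06 (adjusted p = 0.161), and FGF21 36 lay furthest from the controls.

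Of the 11 genes with an unadjusted p under 0.05, 4 were complex I assembly factors. Ndufaf3, which works with Ndufaf4 in building the complex, read 9.93, 10.15, 10.30, 9.81 and 10.00 in the controls, 9.42, 9.88, 9.82, 9.76 and 9.88 with FGF21, and 9.92, 10.16, 10.10, 10.13 and 9.77 with the antibody. The FGF21 samples overlapped the lower controls, and the antibody samples spanned the range of most controls. Its log2 fold change with FGF21 was −0.29 ± 0.11 (adjusted p = 0.159).

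Ndufaf5, which modifies a core subunit during assembly, read 9.10, 9.23, 9.34, 8.76 and 9.04 in the controls and 8.34, 8.87, 8.98, 8.78 and 8.89 with FGF21. The lowest control was control 34 and the lowest FGF21 sample FGF21 36, and the difference was −0.32 ± 0.13 (adjusted p = 0.161). Ndufaf6, another assembly factor, read 9.25, 9.34, 9.37, 9.01 and 9.27 against 8.79, 9.04, 9.23, 9.11 and 9.09. Control 34 again lay among the FGF21 samples, and the value was −0.19 ± 0.08 (adjusted p = 0.210).

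The other genes of the 11 were complex I accessory subunits and a c-ring gene. Ndufa7 had a log2 fold change of −0.21 ± 0.08 (adjusted p = 0.132), and Ndufb3 had −0.20 ± 0.08 (adjusted p = 0.142). Ndufa6 had −0.20 ± 0.09 (adjusted p = 0.203). Ndufb8, of the membrane arm, read 13.78, 13.81, 13.81, 13.63 and 13.80 in the controls and 13.52, 13.72, 13.65, 13.64 and 13.66 with FGF21. All controls but control 34 lay above all FGF21 samples, with a difference of −0.13 ± 0.05 (adjusted p = 0.175). Atp5g2, one of 3 genes that encode the same mature c subunit of the ATP synthase rotor, had −0.23 ± 0.10 (adjusted p = 0.194).

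Leaving out control 34 moved the count of genes called with FGF21 from 0 to 6 of 86, all lower: Atp5g2, Atp5md, Ndufa7, Ndufaf5, Ndufaf6 and Ndufb8. In that fit 15.9% of all genes were called. Leaving out FGF21 36 gave 1, Ndufaf4, higher, where 7.42% of all genes were called. Without both samples 4 of 86 were called, where 16.2% of all genes were, with Ndufaf4 higher and Ndufaf5 (−0.30 ± 0.09, adjusted p = 0.0377), Ndufaf6 (−0.19 ± 0.06, adjusted p = 0.04998) and Ndufb8 (−0.13 ± 0.04, adjusted p = 0.0474) lower. The median of the 86 was then −0.05, with 69 below 0, against 54.1% of all genes. Of the 11 genes with an unadjusted p under 0.05 over all samples, 10 had one in that fit too, and none of the 11 values turned its sign or moved by over 1.5 times. These fits leave out samples that stand out in these same values, so that their calls are description only.

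**Figure D3:**
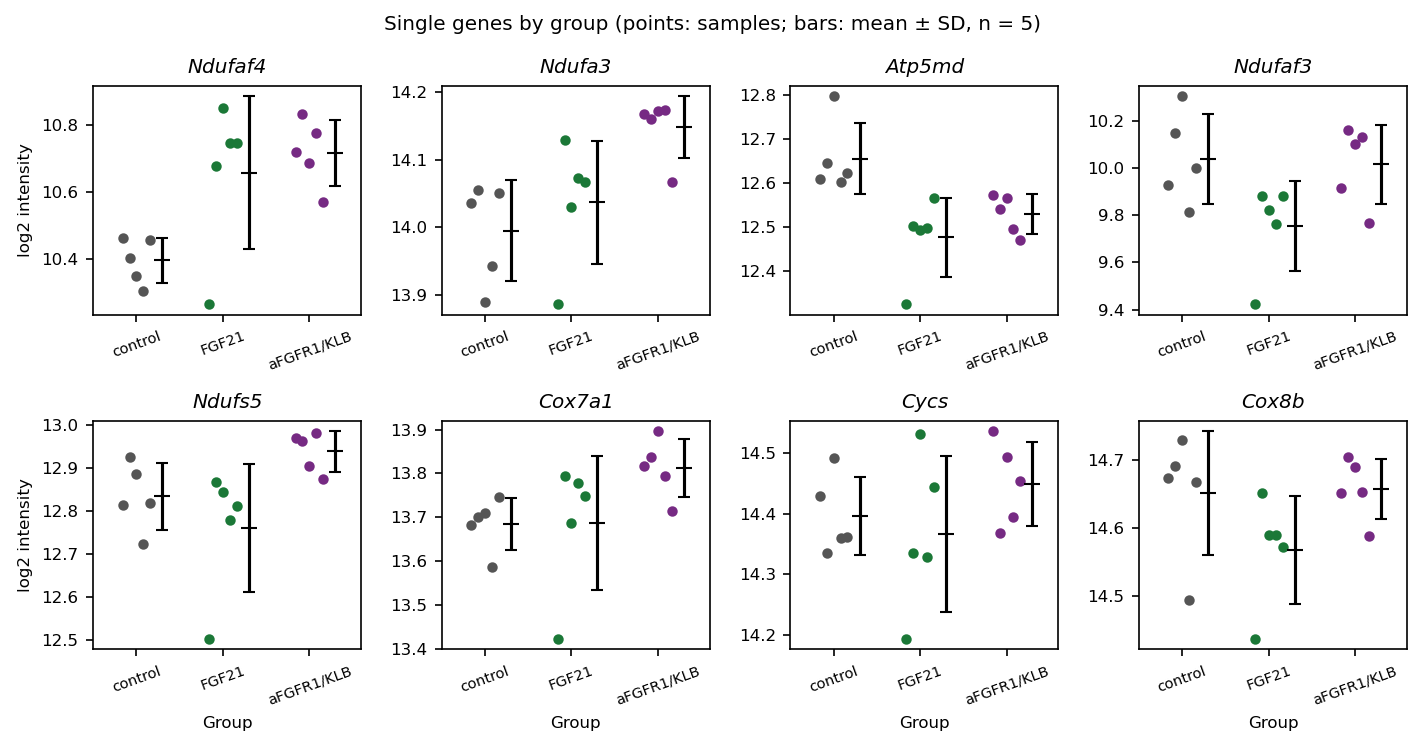
The log2 intensity of 8 genes is plotted for each of the 15 samples by group, with bars for the mean ± SD of 5 samples and a y axis that does not start at 0. For Ndufaf4 the antibody samples lie between 10.57 and 10.83, above all controls, and FGF21 36 is the lowest point in the FGF21 group of every panel.

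Between the antibody and FGF21, no respiratory chain gene differed by the test. In the limma fit 0 of 86 had an adjusted p under 0.05, where 0.372% of all genes did (49 genes), and 3 of 86 had an unadjusted p under 0.05, or 3.49% against 13.5% of all genes. All 3 were higher with the antibody, as were 7.42% of all genes. The median log2 difference, antibody minus FGF21, was 0.07, beside 0.01 for all genes, and 76 of 86 lay above 0 (88.4%, against 53.7%). By complex the medians were 0.10 for complex I, 0.17 for its assembly factors, 0.06 for complex III, 0.08 for Cycs, 0.02 for complex IV and 0.05 for ATP synthase. The 95% interval lay within 1.2-fold for 54 and within 1.5-fold for 84 of 86. Without FGF21 36 the median was 0.03 and 59 of 86 lay above 0, against 50.5% of all genes. Without control 34 and FGF21 36 the medians were 0.04 for complex I (26 of 33 above 0), 0.10 for the assembly factors, −0.002 for complex III (4 of 9), 0.04 for Cycs, 0.0004 for complex IV (9 of 18) and 0.03 for ATP synthase (13 of 17).

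The 3 genes were Ndufs5, Ndufaf6 and Ndufaf3. Ndufs5, an accessory subunit on the outer face of the complex I membrane arm, read 12.50, 12.87, 12.85, 12.78 and 12.81 with FGF21 and 12.97, 12.96, 12.90, 12.98 and 12.88 with the antibody. The groups did not overlap, although the lowest antibody sample and the highest FGF21 sample nearly met. The difference was 0.18 ± 0.07 with an adjusted p of 0.285, and 0.11 ± 0.05 (adjusted p = 0.264) without control 34 and FGF21 36. Ndufaf6 differed by 0.20 ± 0.08 (adjusted p = 0.327) and Ndufaf3 by 0.26 ± 0.11 (adjusted p = 0.331). Ndufa12, another accessory subunit, was the second gene without overlap (2 of 86, or 2.33%, where 4.69% of all genes did not overlap, and 2.39% were wholly higher with the antibody). It read 13.75, 13.97, 13.91, 13.88 and 13.95 with FGF21 and 14.04, 13.99, 14.01, 14.00 and 14.00 with the antibody, an SD of 0.09 against 0.02. The difference was 0.11 ± 0.06 (adjusted p = 0.387).

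For the core subunits and the isoforms typical of brown fat, no comparison passed the test. Ndufs1, the largest iron-sulfur subunit of complex I, had log2 fold changes of −0.06 ± 0.11 with the antibody and −0.21 ± 0.11 with FGF21 (adjusted p = 0.840 and 0.310). Ndufv1, which binds NADH, had −0.02 ± 0.09 and −0.08 ± 0.09 (adjusted p = 0.933 and 0.697). In complex III, Uqcrc1 had 0.05 ± 0.07 and 0.01 ± 0.07, and Cyc1, the cytochrome that hands electrons to cytochrome c, had 0.01 ± 0.07 and −0.05 ± 0.07. Cycs, the mobile carrier, read 14.43, 14.34, 14.49, 14.36 and 14.36 in the controls, 14.19, 14.34, 14.53, 14.33 and 14.44 with FGF21, and 14.54, 14.37, 14.49, 14.39 and 14.45 with the antibody. The 3 groups of Cycs overlapped, with values of 0.05 ± 0.06 (antibody) and −0.03 ± 0.06 (FGF21).

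In complex IV, Cox4i1, the constant regulatory subunit, had 0.04 ± 0.05 with the antibody (95% interval −0.06 to 0.14) and 0.01 ± 0.05 with FGF21 (−0.09 to 0.11). Its paralogue Cox4i2, the dimmest tested gene of the 86 with a mean of 5.72, had −0.05 ± 0.09 and −0.07 ± 0.09. Cox7a1 read 13.68, 13.70, 13.71, 13.59 and 13.75 in the controls, 13.42, 13.79, 13.69, 13.78 and 13.75 with FGF21, and 13.82, 13.84, 13.90, 13.80 and 13.71 with the antibody. Of the antibody samples 4 of 5 lay above all controls, and the value was 0.13 ± 0.07 (adjusted p = 0.346), against 0.00 ± 0.07 with FGF21. Cox8b read 14.67, 14.69, 14.73, 14.49 and 14.67 in the controls, 14.44, 14.65, 14.59, 14.59 and 14.57 with FGF21, and 14.65, 14.70, 14.69, 14.65 and 14.59 with the antibody. The antibody samples lay within the control range, with 0.01 ± 0.06, and the FGF21 value was −0.08 ± 0.06 (adjusted p = 0.461).

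The general isoform Cox7a2 had −0.05 ± 0.05 and −0.07 ± 0.05, and Cox8a had 0.05 ± 0.09 and −0.11 ± 0.09, antibody first. Cox5a had −0.04 ± 0.05 in both comparisons, and Cox5b had −0.01 ± 0.05 and −0.03 ± 0.05. Ndufa4 had −0.05 ± 0.07 and −0.12 ± 0.07, and Cox7a2l had −0.13 ± 0.07 and −0.11 ± 0.07 (adjusted p = 0.383 and 0.433). In ATP synthase, the catalytic beta subunit Atp5b had 0.09 ± 0.06 and 0.02 ± 0.06, and the alpha subunit Atp5a1 had 0.01 ± 0.06 and −0.01 ± 0.06. The antibody samples of Atp5a1 read 14.30, 14.31, 14.28, 14.31 and 14.31, all inside the control range of 14.12 to 14.36. Their SD was 0.01.

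Differences between animals ran through most of the genes together. FGF21 36 was the lowest of all 15 samples for 63 of 86 genes (73.3%, against 20.7% of all genes tested). Its values lay below the median of the other 4 FGF21 samples for 80 of 86, with a median difference of −0.24 beside −0.04 for all genes. Control 34 lay below the median of the other 4 controls for 76 of 86, by a median of −0.15 beside −0.07 for all genes. By complex, the median deviation of FGF21 36 from each gene's mean over the 15 samples was −0.26 for complex I, −0.45 for the assembly factors, −0.28 for complex III, −0.13 for complex IV and −0.19 for ATP synthase. Both samples had the highest means of the 12 macrophage markers (1.88 in FGF21 36 and 1.39 in control 34, as log2 deviations) and of the 9 fibroblast and matrix markers (1.30 and 1.61).

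Over groups, the macrophage list ranged from −1.13 to 1.39 in the controls, from −0.84 to 1.88 with FGF21 and from −0.53 to 0.21 with the antibody. The fibroblast and matrix list ranged from −0.65 to 1.61, from −0.53 to 1.30 and from −0.75 to −0.11. No gene of either list was called in a comparison, 0 of 12 and 0 of 9. Of all genes, 5.18% were called with the antibody, 6.32% with FGF21 and 0.372% between the treatments. In lists this short, 0 calls do not show that the groups were alike. Against control, the median log2 fold change of the macrophage list was −0.04 (antibody) and 0.58 (FGF21), and of the other list −0.47 and 0.35. Between the treatments the medians were −0.59 and −0.65, and all genes of both lists were lower with the antibody. The part of both lists in the level of the respiratory chain genes was not tested. The median SD within groups was 0.103 for the 86 genes and 0.156 for all genes tested, and 0.0596 against 0.125 without the 2 samples.

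**Figure D4:**
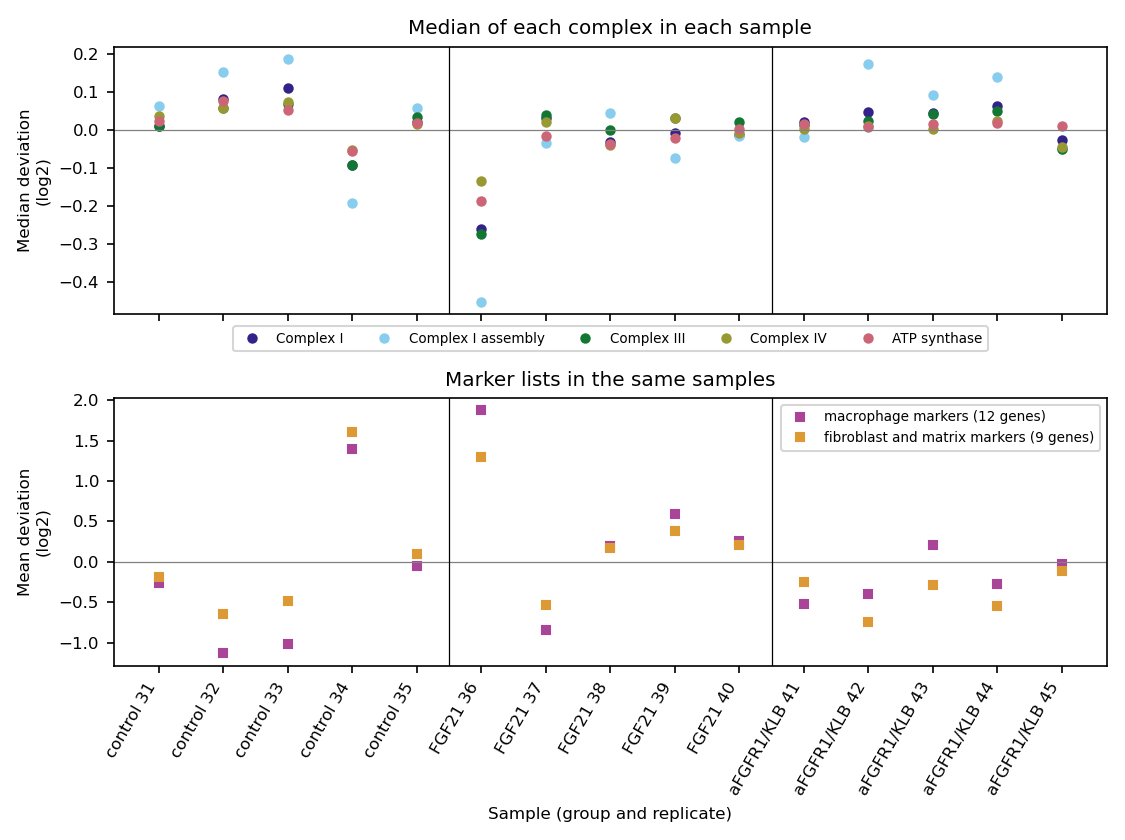
The upper panel gives, for each sample, the median log2 deviation of each complex's genes from their means over the 15 samples, and the lower panel gives the mean deviation of the macrophage and of the fibroblast and matrix markers. FGF21 36 has the lowest medians (−0.45 for the assembly factors) and, with control 34, the highest marker means.

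A pair of genes varied between animals far more than the rest, and in another order. Cox6a2, the heart and skeletal muscle isoform of a complex IV subunit, read 9.70, 8.07, 9.57, 8.77 and 8.82 in the controls, 11.93, 9.91, 7.11, 7.18 and 7.68 with FGF21, and 10.53, 6.92, 8.01, 6.96 and 12.43 with the antibody. The treated groups each held the extremes, and the controls lay between them. Atp5g1, a c-ring gene like Atp5g2, read 8.78, 7.83, 9.01, 9.55 and 8.47, then 10.58, 8.75, 8.20, 8.60 and 8.39, then 9.29, 7.53, 8.29, 7.64 and 10.63 in the same order of groups. It was highest in aFGFR1/KLB 45 and FGF21 36, as was Cox6a2. The other 84 genes had a median range of 0.43 over the 15 samples, and 83 of them had a range under 1. The exception was Cox6b2, the testis isoform of another complex IV subunit, with a range of 1.18.

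Skeletal muscle genes varied in the same samples. The mean of 13 muscle markers, Cox6a2 not among them, ran from −4.30 in FGF21 38 to 3.80 in aFGFR1/KLB 45 as log2 deviations, with FGF21 36 next at 3.66 and aFGFR1/KLB 41 at 2.45. The muscle actin Acta1 ranged from 4.69 to 14.51 and the creatine kinase Ckm from 5.74 to 13.58. By group the list ranged from 0.01 to 1.78 in the controls, from −4.30 to 3.66 with FGF21 and from −4.08 to 3.80 with the antibody. The median log2 fold change of the 13 markers was −1.56 with the antibody, −1.59 with FGF21 and 0.03 between the treatments. In these comparisons 0 of 13 were called, where 5.18%, 6.32% and 0.372% of all genes were. With such a spread, 0 calls do not show that the groups were alike. The 5 samples highest in the muscle list included 4 of the 5 highest for Cox6a2 and 4 of the 5 highest for Atp5g1. The part of muscle RNA in these levels was not tested.

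Neither gene differed between groups beyond that spread. For Cox6a2 the log2 fold changes were −0.02 ± 1.09 with the antibody (95% interval −2.35 to 2.31) and −0.22 ± 1.09 with FGF21. FGF21 36 held the highest FGF21 reading of Cox6a2, 11.93, and without it and control 34 the FGF21 value was −1.07 ± 1.09 and the antibody value −0.07 ± 1.03. The values of Atp5g1 were −0.05 ± 0.58 (−1.28 to 1.18) and 0.18 ± 0.58, and without both samples 0.15 ± 0.52 and −0.04 ± 0.55. These intervals are the widest of the 86 and leave a change of several fold undetectable. Cox6a1, the general isoform, read between 14.98 and 15.08 in the 15 samples, with −0.02 ± 0.04 in both comparisons with control. It was the brightest of 45101 probe sets on 11 of the 15 arrays and among the 3 brightest on the others. After quantile normalisation a rise of such a probe set could hardly show, so that its values do not bear on whether it rose. Whether a small fall would show so near the top of the range was not tested.

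**Figure D5:**
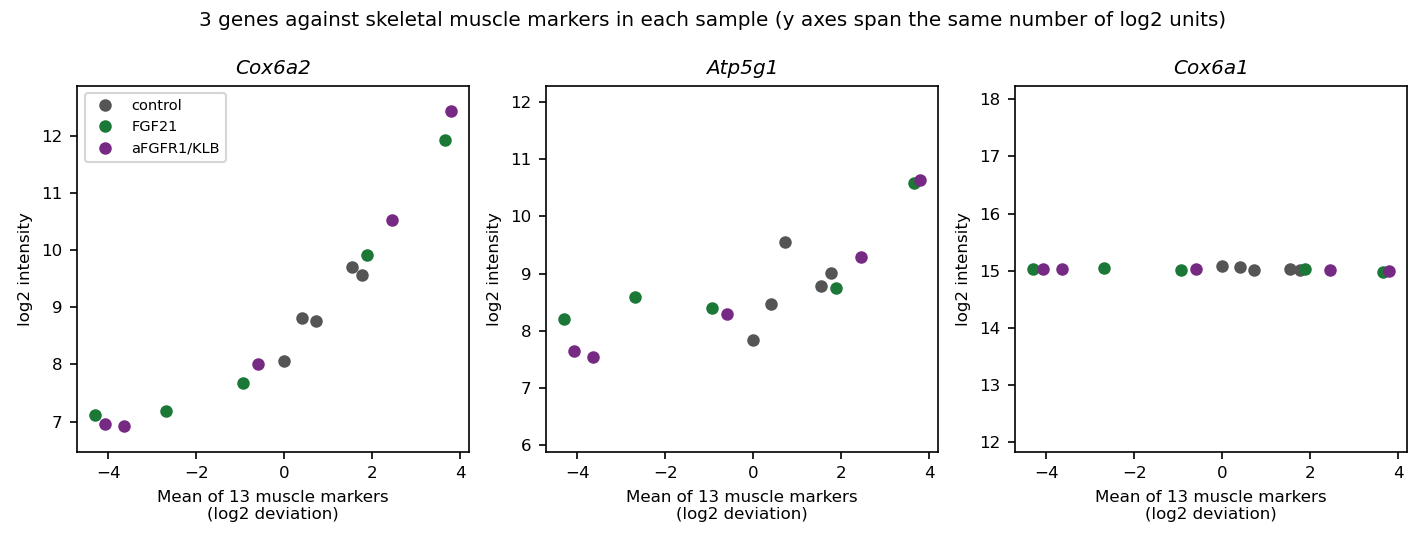
The log2 intensity of Cox6a2, Atp5g1 and Cox6a1 (y axes of equal span) is plotted against the mean log2 deviation of 13 skeletal muscle markers in each of the 15 samples, coloured by group. Cox6a2 spans 6.92 to 12.43 and is highest where the muscle list is highest, and Cox6a1, at the top of the arrays' range, lies near 15.

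Other genes of the pathway were read from lists of complex II, assembly factors, ubiquinone synthesis, other electron entry, a mitochondrially encoded subunit, the ATP synthase inhibitor and mitochondrial mass. Of 79 tested, 4 changed with the antibody (5.06%, against 5.18% of all genes), 3 higher and 1 lower (2.69% and 2.49% of all genes were), with a median of 0.07. With FGF21, 6 changed (7.59%, against 6.32%), 1 higher and 5 lower (2.64% and 3.68% of all genes were), with a median of −0.06. Between the treatments 0 of 79 passed in the limma fit, where 0.372% of all genes did, and the median was 0.13. At an unadjusted p under 0.05 there were 11, where 13.5% of all genes were. The 4 subunits of complex II, which feeds electrons from succinate, had 0 calls, with values from −0.03 to 0.07 with the antibody and from −0.13 to −0.04 with FGF21.

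These counts turned on the samples and the scaling. Without control 34 and FGF21 36, 14 were called with the antibody (8 higher, 6 lower), where 12.4% of all genes were, and 17 with FGF21 (6 higher, 11 lower), where 16.2% were. With arrays centred on their median, 0 were called with the antibody and 2 with FGF21, where 3.18% and 4.08% of all genes were. With arrays centred on ribosomal protein genes, 0 were called in both comparisons, where 1.28% and 1.43% of all genes were. With the antibody, 1 gene was called when any single sample of control 32, 33 and 35, FGF21 39 and 40 and aFGFR1/KLB 41 to 44 was left out. In those fits 2.55% to 4.73% of all genes were called. There were 2 without control 31 and 9 without FGF21 36, where 3.45% and 7.27% of all genes were called. With FGF21, 13 were called without control 34, where 15.9% of all genes were. There were 3 without control 32, control 33 or FGF21 39, where 3.51% to 3.99% of all genes were called.

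Of 12 genes of ubiquinone synthesis, 2 were called in each comparison with control, 1 higher and 1 lower, and they were the same genes. Of all genes, 5.18% were called with the antibody and 6.32% with FGF21. Coq10b, which binds ubiquinone, read 8.74, 9.01, 9.08, 8.97 and 9.04 in the controls, 9.22, 9.99, 9.96, 9.51 and 9.74 with FGF21, and 9.28, 9.64, 9.36, 9.68 and 9.36 with the antibody. It rose in both groups without overlap, by 0.50 ± 0.14 with the antibody (adjusted p = 0.0492) and 0.72 ± 0.14 with FGF21 (adjusted p = 0.00657). Coq8a, a kinase-like protein needed to make ubiquinone, read 13.03, 13.33, 13.34, 12.74 and 13.03 in the controls, 12.24, 12.63, 12.36, 12.79 and 12.50 with FGF21, and 12.41, 12.44, 12.37, 12.79 and 12.50 with the antibody. It fell by 0.60 ± 0.13 with the antibody (adjusted p = 0.0166) and by 0.59 ± 0.13 with FGF21 (adjusted p = 0.0138), where 1 sample of each treated group lay above the lowest control. Over the 28 alternatives Coq8a was called in 26 of 28 in each comparison, and Coq10b in 27 with FGF21 but in 12 with the antibody.

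Among 21 assembly factors of complex IV, 1 rose with the antibody, where 2.69% of all genes did, the copper carrier Sco1 by 0.46 ± 0.12 (adjusted p = 0.0396). With FGF21 4 of 21 fell, where 3.68% of all genes did. These were Coa6, another copper factor (−0.36 ± 0.08, adjusted p = 0.0170), Cmc1 (−0.34 ± 0.08, adjusted p = 0.0206), Pet100 (−0.37 ± 0.10, adjusted p = 0.0391) and Higd2a (−0.27 ± 0.08, adjusted p = 0.0443). Of the 28 alternatives, Coa6 was called in 25, Cmc1 in 21, Sco1 in 14, Pet100 in 11 and Higd2a in 9. Hspd1, a chaperone of the mitochondrial matrix counted with mitochondrial mass, rose by 0.25 ± 0.07 with the antibody (adjusted p = 0.0445), called in 12 of 28 alternatives. The mitochondrially encoded complex I subunit ND5 read 14.80, 14.70, 14.76, 14.71 and 14.79 in the controls and 14.94, 14.88, 14.89, 14.91 and 14.94 with the antibody. These groups did not overlap, but the value of 0.16 ± 0.05 missed the threshold (adjusted p = 0.0875), and with FGF21 it was 0.03 ± 0.05. Of 13 regulators, of which Tfam is also among the 79, 1 was called with the antibody and 0 with FGF21 in the limma fit. Of all genes, 5.18% and 6.32% were. At an unadjusted p under 0.05 there were 3 in each, where 19.4% and 20.4% of all genes were. Ppargc1a, a coactivator of mitochondrial genes, rose by 0.60 ± 0.17 with the antibody (adjusted p = 0.0486) and had 0.57 ± 0.17 with FGF21 (adjusted p = 0.0559), and it was called with the antibody in 13 of the 28 alternatives.

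Beyond the probe set used for each gene, 166 of the 175 probe sets of the 88 genes lay above the filter. Tested as features of their own, 2 passed with the antibody (of 22819 probe sets, 4.79% did), 0 with FGF21 (5.45%) and 0 between the treatments (0.416%). The 2 were the dimmer probe set of Ndufaf4 and a dimmer one of Ndufs4, a complex I subunit. That probe set of Ndufs4 read 8.65, 8.39, 8.43, 7.96 and 8.52 in the controls and 8.78, 9.20, 8.93, 9.04 and 8.85 with the antibody, without overlap. It gave 0.57 ± 0.15 with an adjusted p of 0.0406, while the brightest probe set of Ndufs4 gave 0.02 ± 0.11 and another dimmer one 0.11 ± 0.09, so that the probe sets of this gene disagree.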

How the data were processed

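Brown fat RNA of 15 mice (5 per group) was measured on 1-colour arrays. The deposited table gives the authors' normalised intensity per probe set, on a linear scale from 5.58 to 34652, made with RMA per the submitters' processing notes. RMA's quantile step gives all arrays like distributions, so that a shift of all genes together would not show. The version and later steps are not given in the sources used here.

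Of 45101 probe sets, 34958 carried 1 gene symbol in the platform annotation, 932 several and 9211 none listed there. Each of 18194 genes was read from its brightest probe set, and the 13174 above the 40th percentile (5.06 on the log2 scale) were tested. A one-way model of 3 groups was fitted to log2 values of all 15 samples with limma 3.58.1 in R 4.3.3 (12 residual degrees of freedom, two-sided, Benjamini-Hochberg within each of 3 comparisons, threshold 0.05). The fit was tested on simulated data. All p-values are from this fit or the alternatives named, and set a difference between group means against the spread between animals within groups. Lists are described by counts and medians, with no test.

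Groups came from the sample titles, and no batch is labelled. Alternatives were the filter, a pseudocount of 16, the probe set rule, array centring, repeated quantile normalisation, the variance model, array weights, 2-group fits and leaving out samples. The genes and lists were chosen with earlier results of these data known. Genes named were any called, the 2 with the smallest p per complex and comparison with control, a fixed list of core subunits and isoforms, and the 3 highest and lowest means with their paralogues. Ndufs4, Ndufs5, Ndufaf5, Ndufaf6, Ndufb8, Ndufa6, Ndufa12, Ndufc2, Cox6b2 and ND5 were named after their values were seen, as were the other pathway genes given with values.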

Additional observations from a re-analysis of the deposited data

Results flagged for a closer look

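In 138 sets of 5 values (medians and named genes, by group), the highest or lowest sample was checked for a gap of more than 0.71 of the set's range (Dixon's test), which chance gives in about 1 of 20 sets. It was found 30 times, 18 of them for FGF21 36 and 5 for control 34. The sets are not independent, since they share the same 15 samples and the medians are built from the same genes. The 30 can therefore not be held against that rate.

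FGF21 36 was lowest in its group in the median deviation of all 86 genes (−0.23), of complex I (−0.26), of the complex I assembly factors (−0.45), of complex III (−0.28) and of ATP synthase (−0.19). Its log2 intensity was also lowest and apart for the core complex III genes Cyc1 (13.88), Uqcrc1 (13.70) and Uqcrc2 (13.97) and for the small subunit Uqcr10 (13.06). In complex I and its assembly the same held for Ndufa7 (12.56), Ndufb3 (11.92) and Ndufaf3 (9.42). In complex IV it held for Cox4i1 (14.27), Cox7a1 (13.42), Cox8a (13.03) and Ndufa4 (13.82), and in ATP synthase for Atp5a1 (14.15). Atp5g1 went the other way, with FGF21 36 highest at 10.58.

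Control 34 was lowest and apart from the other controls for Ndufv1 (13.72), Uqcrc1 (13.69), Cyc1 (13.99), Cox8b (14.49) and Atp5a1 (14.12). In control 33, Atp5md was high (12.80) and Uqcrb low (14.50). Among the antibody samples, aFGFR1/KLB 45 was low for Ndufa3 (14.07), Ndufa4 (14.10) and Uqcr11 (13.74) and high for Atp5g3 (13.38), and aFGFR1/KLB 43 was high for Cox7a2 (14.31).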

How the results depend on the processing

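The 3 comparisons were recomputed under 28 alternatives, and no value of a named gene changed sign and call together. Between the treatments 0 of 86 genes were called under every one of the 28, where 0.0607% to 6.32% of all genes were. With the antibody, 1 gene (higher) was called with the 60th percentile filter, with the mean of a gene's probe sets and with only the 2 groups compared. In those fits 7.59%, 4.97% and 5.06% of all genes were called. There was also 1 (higher) without control 34 and FGF21 36, and there were 3 (2 higher, 1 lower) with array weights. With FGF21, 9 were called with array weights (1 higher, 8 lower) and 4 (1 higher, 3 lower) without control 34 and FGF21 36. With array weights 17.5% of all genes were called with the antibody and 21.7% with FGF21, and without both samples 12.4% and 16.2%. Leaving out each replicate in turn gave 0 to 1 with the antibody (higher 0 to 1) and 0 to 6 with FGF21 (higher 0 to 1, lower 0 to 6). The medians of the 86 then ran from −0.03 to 0.02 with the antibody, from −0.10 to −0.03 with FGF21 and from 0.03 to 0.09 between the treatments. Counts of the 79 other pathway genes were recomputed by a choice made after seeing the data, and shares of all genes called are given in brackets. With the antibody they were 1 with no filter (3.11%) and with quantile normalisation again (4.62%), 7 with only the 2 groups compared (5.06%) and 19 with array weights (17.5%). With FGF21 they were 1 with only the 2 groups compared (2.44%) and 20 with array weights (21.7%), and between the treatments 6 with array weights (6.32%). Centring gave 0 (antibody, either way), 2 (FGF21, on the median) and 0 (FGF21, on ribosomal protein genes), and leaving out both samples gave 14 and 17. Leaving out each replicate in turn gave 1 to 9 with the antibody, 3 to 13 with FGF21 and 0 between the treatments. Of all genes those fits called 2.55% to 8.65% with the antibody and 3.51% to 15.9% with FGF21.

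Centring on ribosomal protein genes gave antibody medians of 0.10 for the 86, 0.12 for complex I, 0.11 for complex III, 0.16 for Cycs, 0.090 for complex IV and 0.094 for ATP synthase, and between the treatments 0.16, 0.19, 0.15 (complex III), 0.11 (complex IV) and 0.14 (ATP synthase). Those shifts follow from the centring, which moves all genes alike. With the mean of its probe sets, Cycs had 0.16 with the antibody. The cause of the other moves was not tested. No paired analysis was possible because the replicate numbers 31 to 45 do not repeat between groups. With 5 arrays per group, changes of 1.5-fold or more lay outside the interval of all but 2 genes with the antibody and all but 4 with FGF21. The intervals of all comparisons leave out that signals near the top of the arrays' range, such as that of Cox6a1, may rise too little. For such genes a narrow interval does not exclude a rise.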
